A study of Rattus norvegicus with 6 samples.

Results

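The tricarboxylic acid cycle enzymes are the mitochondrial proteins that oxidise acetyl-CoA to carbon dioxide and pass the electrons on to the respiratory chain. They were followed here in the renal cortex of rats through 9 genes, listed by their function: Pdha1, Cs, Idh3a, Idh2, Ogdh, Dlst, Suclg1, Fh (also named Fh1) and Mdh2. All array probes whose RefSeq accession maps to these symbols were taken, which gave 17 of 61537 probes. All 17 probes, and so all 9 genes of the 11530 tested, passed the filter on dim probes. RNA of the renal cortex was hybridised to 1-colour Agilent arrays, with 1 array for each of 6 rats. All were male, of the outbred Sprague-Dawley strain, purchased when 5 weeks old and kept on a basal diet with tap water. As controls, 3 rats were dosed with water for 4 weeks, and the other 3 were dosed for as long with 500 mg/kg/day of ethylenediamine dihydrochloride, a small diamine salt. The labels describe 3 animals in each group, so the spread between arrays includes that between animals.

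The cycle starts when citrate synthase joins acetyl-CoA to oxaloacetate, and it runs through isocitrate, 2-oxoglutarate, succinyl-CoA, succinate, fumarate and malate back to oxaloacetate. The pyruvate dehydrogenase complex feeds it with acetyl-CoA from pyruvate. In the kidney, the proximal tubule makes up most of the cortex and is dense in mitochondria, and its reabsorption of salts, glucose and amino acids runs mainly on ATP from oxidative metabolism. The cycle there also takes up carbon from glutamine and other amino acids and gives it off for gluconeogenesis.

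In these rats, transcripts of the cycle enzymes differed little between treated and control cortex. By limma, 0 of the 9 genes passed an adjusted p of 0.05, where 0% of all genes tested did (0 of 11530). At an unadjusted p under 0.05 the count was 0 of 9, against 1194 of 11530. The 9 log2 fold changes, ethylenediamine minus water, ran from -0.087 (Idh2) to 0.082 (Cs), with a median of -0.013 beside -0.0036 over all genes tested. All 9 of the 95% intervals held 0, and none reached further than 0.862-fold on the low side (Idh2) or 1.26-fold on the high side (Idh3a). These bounds are for the brightest probe of each gene, taken 1 gene at a time, in a fit without the slide. Of the treated arrays, 2 were on another slide than the controls. With the slide as a block, the SE of Idh3a was 0.16 against 0.11 without it. That of Idh2 was 0.078 against 0.052, so their intervals would be wider.

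Values below are log2 of the processed signal after subtraction of the array's 75th percentile, so that 0 is the signal of a probe at that percentile. A gene is represented by its brightest probe over the 6 arrays. The signal of a probe also depends on its sequence, so levels are compared between arrays and never between genes. Adjusted p-values are Benjamini-Hochberg values over the 11530 genes.

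The promoters of Cs and Idh2 are shown because these genes had the highest and the lowest fold change of the 9. RefSeq's promoter table (build GRCr8) matched 8 of the 9 genes by symbol, all but Idh3a, and gives 250 bases before to 50 bases after the annotated start of each. They were searched on both strands for the NRF1 core TGCGCA, the estrogen-related receptor site AAGGTCA, the ETS core CGGAAG, the GC box GGGCGG, the CCAAT box CCAAT and the antioxidant response element core TGACNNNGC. NRF1, the estrogen-related receptors and the ETS factor GABP are known regulators of mitochondrial genes. No motif in the set contains another, and matches were allowed to overlap. Each sequence is printed 5′ to 3′ on the gene's own strand, with matches to any of these motifs in capitals. The Cs window lies at chr7:1348139-1348438 on the plus strand and the Idh2 window at chr1:143467199-143467498 on the minus strand.
Cs: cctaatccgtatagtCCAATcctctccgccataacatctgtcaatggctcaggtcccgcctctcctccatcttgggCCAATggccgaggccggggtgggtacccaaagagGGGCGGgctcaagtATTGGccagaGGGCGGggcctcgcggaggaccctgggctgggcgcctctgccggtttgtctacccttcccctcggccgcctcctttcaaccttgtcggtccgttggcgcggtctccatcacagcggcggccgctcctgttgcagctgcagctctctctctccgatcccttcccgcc
Idh2: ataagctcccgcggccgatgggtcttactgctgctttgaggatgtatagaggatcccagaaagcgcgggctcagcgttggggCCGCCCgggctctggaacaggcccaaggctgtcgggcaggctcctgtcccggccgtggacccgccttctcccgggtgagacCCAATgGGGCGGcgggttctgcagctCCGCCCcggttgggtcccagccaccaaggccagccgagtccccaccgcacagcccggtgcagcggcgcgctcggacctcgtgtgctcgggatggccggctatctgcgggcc

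The Cs window held 3 matches to the CCAAT box and 2 to the GC box, and the Idh2 window 1 and 3. A GC box was found in 7 of the 8 promoters, in all but that of Suclg1, against 33.1% of the 33469 promoters of 300 bases in the table. The CCAAT box was in 5 of 8, against 37.5% of all promoters, the ETS core in 2 (Dlst and Mdh2) against 16.6%, and the antioxidant response element core in 2 (Mdh2 and Pdha1) against 12.1%. The NRF1 core was in the Mdh2 promoter alone among the 8, against 7.24% of all promoters, and the estrogen-related receptor site was in 0 of 8, against 4.61%. The GC content of the 8 windows ran from 53% (Fh) to 70% (Idh2), above the median of 51.7% over all promoters, and the GC box is itself rich in G and C. These are matches of letters only.

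Pdha1 encodes the catalytic alpha subunit of pyruvate dehydrogenase, the gate between glycolysis and the cycle. Its log2 signal was 5.81, 5.85 and 5.85 on the arrays of water replicates 1 to 3 and 5.90, 5.77 and 5.79 on those of ethylenediamine replicates 1 to 3. The treated arrays thus lay on both sides of the controls, with the first above all 3 and the others below all 3. The log2 fold change was -0.013 ± 0.058 (SE, n = 3 per group; limma adjusted p = 0.952).

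Cs encodes citrate synthase, which makes citrate and whose enzyme activity is a common measure of mitochondrial content. It stood at 3.37, 3.39 and 3.52 in the water group and at 3.53, 3.46 and 3.53 in the ethylenediamine group. The control at 3.52 lay within the treated range, so the groups overlapped. The fold change was 1.06, or 0.082 ± 0.064 on the log2 scale (SE, n = 3 per group; limma adjusted p = 0.686).

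Isocitrate is oxidised in mitochondria by a pair of enzymes, the NAD-dependent one, whose catalytic subunit is encoded by Idh3a, and the NADP-dependent one encoded by Idh2, which also supplies NADPH for antioxidant systems. Idh3a was measured at 1.61, 1.32 and 1.42 in the water group and at 1.58, 1.35 and 1.61 in the ethylenediamine group. It was the most variable of the 9 genes, with a pooled SD within groups of 0.146, and the groups overlapped over nearly their whole range. Its log2 fold change was 0.063 ± 0.11 (SE, n = 3 per group; limma adjusted p = 0.859).

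Idh2 was the only one of the 9 genes whose groups did not overlap. Its log2 signal was 7.44, 7.48 and 7.50 in the water group and 7.40, 7.35 and 7.42 in the ethylenediamine group, so that each treated array was below each control. Over all genes tested, the treated group lay wholly below the controls for 8.27% and wholly above them for 9.2%, so 1 of 9 is close to that background. The fold change was 0.941, or -0.087 ± 0.052 on the log2 scale (SE, n = 3 per group; limma adjusted p = 0.615).

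The 2-oxoglutarate dehydrogenase complex turns 2-oxoglutarate into succinyl-CoA, with Ogdh encoding its first component and Dlst its lipoate-bearing core. Ogdh had the smallest pooled SD of the 9 genes (0.0242), at 4.65, 4.70 and 4.68 in the water group and 4.65, 4.66 and 4.62 in the ethylenediamine group. The treated arrays overlapped the lower end of the controls, and the log2 fold change was -0.037 ± 0.049 (SE, n = 3 per group; limma adjusted p = 0.812). Dlst stood at 5.55, 5.51 and 5.67 in the water group and 5.63, 5.61 and 5.48 in the ethylenediamine group. Its group means were nearly equal, and differed by -0.0066 ± 0.072 (log2, SE, n = 3 per group; limma adjusted p = 0.982).

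Suclg1 encodes the alpha subunit of succinyl-CoA synthetase, the step that yields GTP or ATP directly. It was measured at 7.37, 7.35 and 7.49 in the water group and at 7.49, 7.36 and 7.31 in the ethylenediamine group. The spread within each group was wider than the difference between them, which was -0.014 ± 0.074 (log2, SE, n = 3 per group; limma adjusted p = 0.962).

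Fumarase, encoded by Fh, hydrates fumarate to malate, and malate dehydrogenase, encoded by Mdh2, closes the cycle. Fh stood at 6.09, 6.05 and 6.13 in the water group and at 6.20, 6.24 and 5.92 in the ethylenediamine group. The treated arrays spread over 0.313 log2 units and enclosed all 3 controls, which spread over 0.0867. The log2 fold change was 0.031 ± 0.096 (SE, n = 3 per group; limma adjusted p = 0.931). Mdh2 stood at 4.56, 4.56 and 4.63 in the water group and at 4.64, 4.49 and 4.53 in the ethylenediamine group. The first treated array was just above the highest control and the other two were below all controls. The log2 fold change was -0.030 ± 0.062 (SE, n = 3 per group; limma adjusted p = 0.888).

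**Figure D1:**
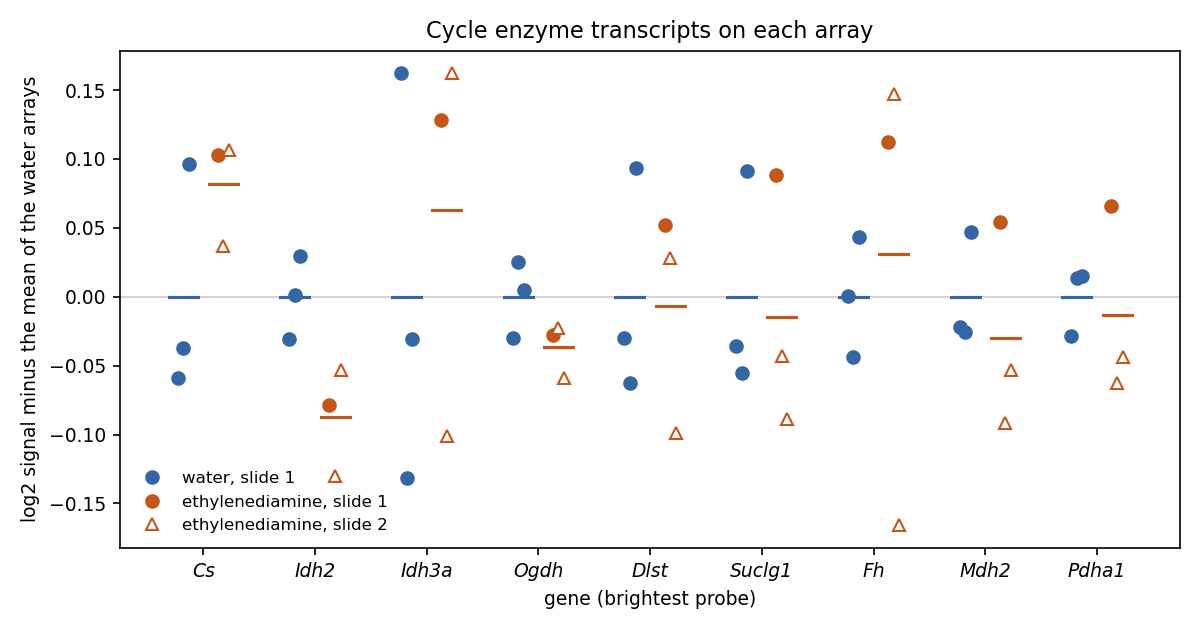
Log2 signal of each of the 9 genes on each of the 6 arrays, minus the mean of the 3 water arrays of that gene; points are arrays, bars are group means, and the marker shape gives the slide. Only for Idh2 do all 3 ethylenediamine arrays lie below all 3 water arrays.

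**Figure D2:**
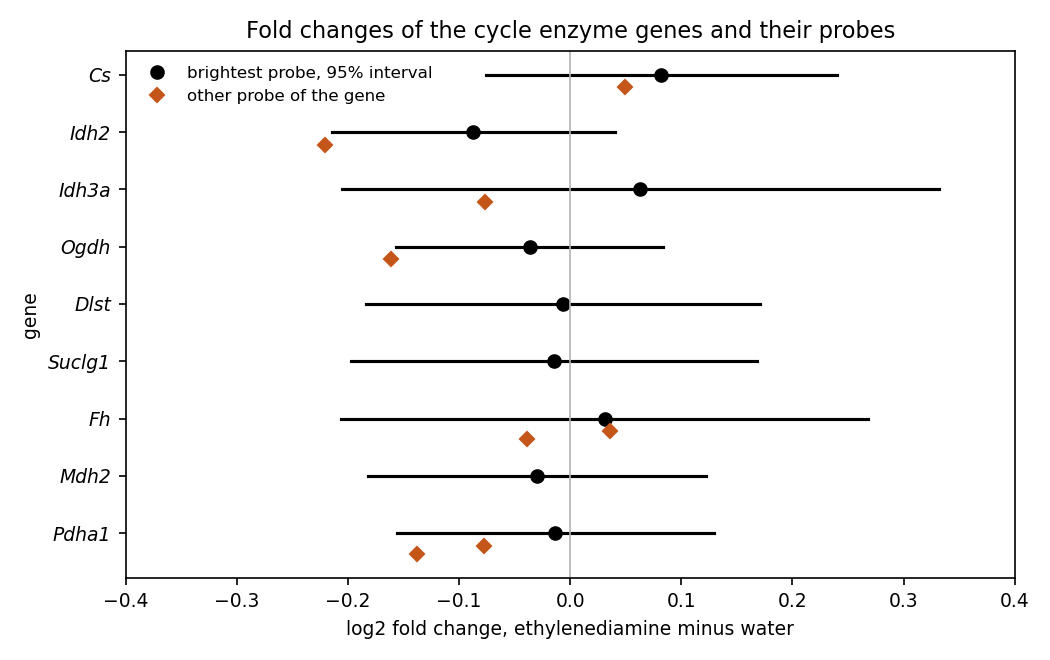
Log2 fold change (ethylenediamine minus water) of each gene by its brightest probe, with the 95% interval of the moderated fit, and of the gene's other probes. All 9 intervals hold 0, and the second Idh2 probe, at -0.22, is the lowest of the 17 probes.

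Of the 9 genes, 3 had 1 probe, 4 had 2 and 2 had 3. All 17 probes were well above background on all 6 arrays. Over the probes, 5 differences were positive and 12 negative. Tested alone over 37822 probes, 0 of the 17 passed an adjusted p of 0.05 by limma, where 0.0106% of all probes did.

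The second probe of Idh2 pointed the same way as the first and by more. It stood at 4.42, 4.56 and 4.54 in the water group and at 4.37, 4.24 and 4.26 in the ethylenediamine group. Again each treated array was below each control, and the log2 fold change was -0.22 ± 0.070 (SE, n = 3 per group; limma adjusted p = 0.398 over all probes). It was the 1 probe of the 17 at an unadjusted p under 0.05, a level that 5.84% of all probes reached with lower and 4.85% with higher signal in the treated group.

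For Ogdh, the dimmer probe had a log2 fold change of -0.16 ± 0.085, against -0.037 for the brighter. All 3 Pdha1 probes were negative, the other two at -0.077 ± 0.10 and -0.14 ± 0.072, and both Cs probes were positive, the second at 0.050 ± 0.065. Probes disagreed in sign for 2 genes, Idh3a, whose second probe was at -0.076 ± 0.079, and Fh, whose others were at 0.036 ± 0.12 and -0.039 ± 0.088 (SE, n = 3 per group for each probe). With the mean of a gene's probes in place of the brightest, Idh2 stood at -0.15 (limma adjusted p = 0.438), Ogdh at -0.099, Pdha1 at -0.076 and Idh3a at -0.0067.

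The arrays were not spread evenly over the slides. All 3 controls shared slide 1 with the first treated rat, and the treated replicates 2 and 3 were on slide 2, scanned on another day. Ethylenediamine replicate 1 had the fewest probes well above background, 35691 against 38930 to 40843 on the other arrays.

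All 9 genes were higher on ethylenediamine replicate 1 than on the mean of replicates 2 and 3, by 0.013 (Idh2) to 0.15 (Suclg1) log2 units. Over all genes tested, 50.3% were. Replicate 1 was above both of the others for 4 of the 9 genes, beside 35.1% of all genes. Against the water mean, replicate 1 was higher for 7 genes and lower for Idh2 and Ogdh, with a median of 0.066. The mean of replicates 2 and 3 was higher for Cs and Idh3a and lower for 7 genes, with a median of -0.041. On replicate 3, 7 of the 9 genes were below the whole range of the water arrays, on replicate 2 it was 3, and on replicate 1 it was Idh2 alone, beside 31.3%, 29.4% and 27.9% of all genes. Above that range were 2 genes on replicate 3, 1 on replicate 2 and 4 on replicate 1, beside 30.7%, 30.4% and 27.9% of all genes. Among controls, water replicate 3 was above its group's mean for 8 genes.

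With the slide as a fixed block, or within slide 1, the estimate is that of replicate 1 against water. The median of the 9 genes was then 0.066, of the other sign than in the whole comparison, and 0 of 9 passed at an adjusted p of 0.05. Within slide 1, Dlst stood at 0.052, Suclg1 at 0.089, Fh at 0.11, Mdh2 at 0.054 and Pdha1 at 0.066, Cs at 0.10, Idh3a at 0.13, Ogdh at -0.028 and Idh2 at -0.079. Treatment and slide cannot be told apart for replicates 2 and 3, and the part of the slide in these values was not tested. Cs, Idh2 and Ogdh kept their sign in the whole comparison and in all 18 alternatives run. These are not all separate estimates. Other filters, the replicate block and the intensity trend left the fold changes of the 9 genes unchanged, and both slide settings gave the same values.

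**Figure D3:**
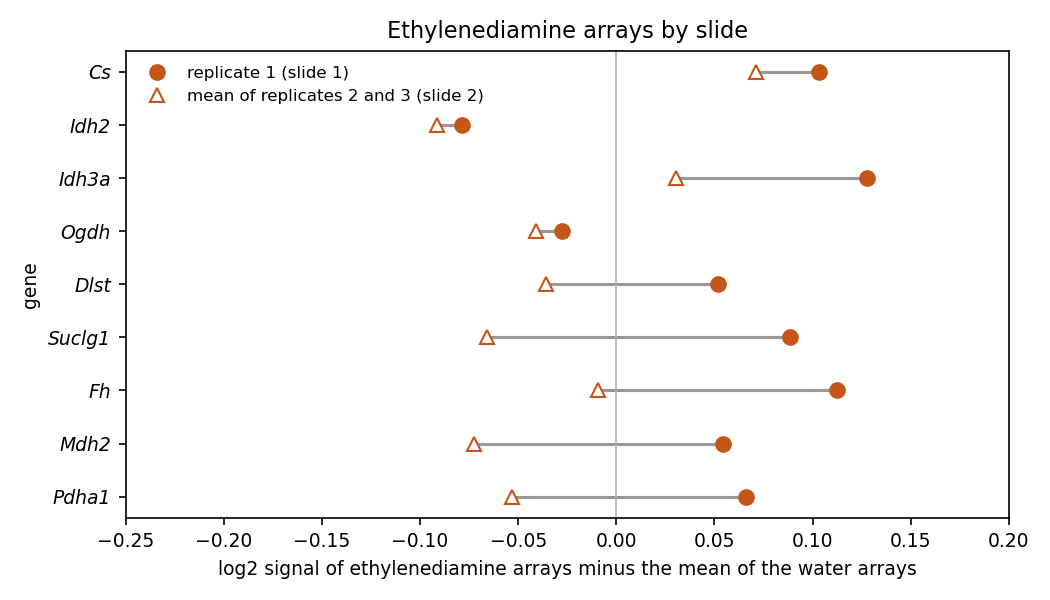
Log2 signal of ethylenediamine replicate 1, on slide 1, and the mean of replicates 2 and 3, on slide 2, each minus the mean of the 3 water arrays, for the 9 genes. The slide 1 value is the higher for all 9 genes, and Cs and Idh3a stay above 0 and Idh2 and Ogdh below 0 on both slides.

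In 7 of the 9 genes, the pooled SD within groups was below the median of all genes tested (0.115), and over the 9 it ran from 0.0242 to 0.146. By the root mean square difference between log2 values centred on each gene's own mean over the 6 arrays, the closest to the mean profile of the 9 was Ndufs1, a subunit of respiratory complex I, at 0.0149. Also among the 5 closest were Commd10 (0.0158), Cul3 (0.0169) and Chmp3 (0.0171), out of 10921 other genes well above background on all 6 arrays. The profile of the 9 was low in amplitude, from -0.035 on water replicate 2 to 0.056 on ethylenediamine replicate 1, so that flat genes come out as close to it.

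The remaining genes of the pathway were read from lists of 75 genes, of which 66 were tested. By limma 0 of the 66 passed an adjusted p of 0.05, as did 0% of all genes. The unadjusted p was under 0.05 for 4 genes with higher signal in the treated group and 5 with lower signal. These were 6.06% and 7.58% of the 66, beside 5.39% and 4.97% of all genes tested. None of the 9 cycle enzymes above was at that level in either direction.

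Among 10 other subunits of the cycle, 7 had a negative log2 fold change, beside 51.2% of all genes tested, and the median was -0.097. Suclg2, the GTP-forming beta subunit that pairs with the product of Suclg1, stood at 5.39, 5.30 and 5.29 in the water group and at 5.11, 5.01 and 5.08 in the ethylenediamine group. Each treated array was below each control, and the log2 fold change was -0.26 ± 0.058, against -0.014 for Suclg1 (SE, n = 3 per group; limma adjusted p = 0.329 for Suclg2). It stood at -0.22 within slide 1. The difference between both subunits was not tested. All 4 subunits of succinate dehydrogenase were negative, from -0.084 (Sdhd) to -0.17 (Sdhb). Sdha, the flavin subunit, was at -0.099 ± 0.073, and at -0.11 within slide 1. Sdhb stood at 5.58, 5.57 and 5.65 in the water group and at 5.57 on ethylenediamine replicate 1. It was lower on slide 2, at 5.34 and 5.37 on ethylenediamine replicates 2 and 3. The other subunits of the NAD-dependent isocitrate dehydrogenase were at 0.12 ± 0.060 (Idh3b) and 0.027 ± 0.055 (Idh3g). The brightest Idh3a probe was on the same side of 0, at 0.063, but the second Idh3a probe was at -0.076.

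At the entry of pyruvate, 12 of 13 listed genes were tested. At an unadjusted p under 0.05, 1 was higher and 2 were lower, beside 5.39% and 4.97% of all genes tested. Pdk4, a kinase that switches pyruvate dehydrogenase off, stood at -2.20, -2.28 and -2.24 in the water group and at -1.92, -1.58 and -1.96 in the ethylenediamine group. Its log2 fold change was 0.42 ± 0.11, with no overlap of the groups (SE, n = 3 per group; limma adjusted p = 0.355). Pdp2, a phosphatase that switches the same complex on, was lower on every treated array (5.51, 5.25 and 5.46) than on any control (5.66, 5.82 and 5.71) (a log2 difference of -0.32 ± 0.088; SE, n = 3 per group; limma adjusted p = 0.355). Pc, the pyruvate carboxylase that refills the cycle with oxaloacetate, stood at 7.69, 7.74 and 7.59 in the water group and at 7.48, 7.46 and 7.44 in the ethylenediamine group, a log2 difference of -0.21 ± 0.059 (SE, n = 3 per group; limma adjusted p = 0.355). Within slide 1 these 3 genes stood at 0.32, -0.22 and -0.19. Pdk2, another kinase of the complex, was at -0.014 ± 0.048.

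Among 9 tested genes for cytosolic or alternative forms, 2 were higher at an unadjusted p under 0.05, beside 5.39% of all genes tested. These were Aco1, the cytosolic aconitase that also binds iron-responsive RNA elements, at 0.32 ± 0.12 and the mitochondrial PEP carboxykinase Pck2 at 0.20 ± 0.074 (SE, n = 3 per group; limma adjusted p = 0.455 and 0.456). Within slide 1, Aco1 stood at 0.21 and Pck2 at 0.27. With the mean of all Pck2 probes in place of the brightest, Pck2 stood at 0.099. The cytosolic partners of the cycle enzymes, Idh1 and Mdh1, were at -0.53 ± 0.29 and -0.11 ± 0.080, and at -0.41 and -0.021 within slide 1. Idh1 stood at -0.85 without water replicate 2 and at -0.26 without water replicate 3, and Mdh1 at -0.046 without ethylenediamine replicate 2. Of 10 tested genes that replenish the cycle, Gpt, an alanine aminotransferase, was at 0.30 ± 0.12, and at 0.063 within slide 1. Of 3 carriers of cycle acids, the oxoglutarate carrier Slc25a11 had the smallest p, at -0.064 ± 0.054, and it stood at -0.012 within slide 1. Of 7 genes for lipoylation, assembly and deacylation, the desuccinylase Sirt5 was at -0.23 ± 0.069 (SE, n = 3 per group for each gene), and it stood at -0.15 within slide 1.

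Genes of mitochondrial mass and biogenesis lay mostly close to 0, as the cycle enzymes did, with a median of -0.021. Of the 15, 13 were negative, beside 51.2% of all genes tested. For 2 of 15 the treated group lay wholly below the controls, beside 8.27% of all genes, and for 0 wholly above, beside 9.2%. The pore protein Vdac1 was at -0.021 ± 0.065 and the mitochondrial transcription factor Tfam at -0.028 ± 0.048, while Tomm20 was at -0.098 ± 0.051. Ppargc1a, a coactivator of mitochondrial biogenesis, was at -0.19 ± 0.064 (SE, n = 3 per group; limma adjusted p = 0.414) and at -0.13 within slide 1. It was the 1 of 15 at an unadjusted p under 0.05, a level that 4.97% of all genes tested reached with lower and 5.39% with higher signal.

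**Figure D4:**
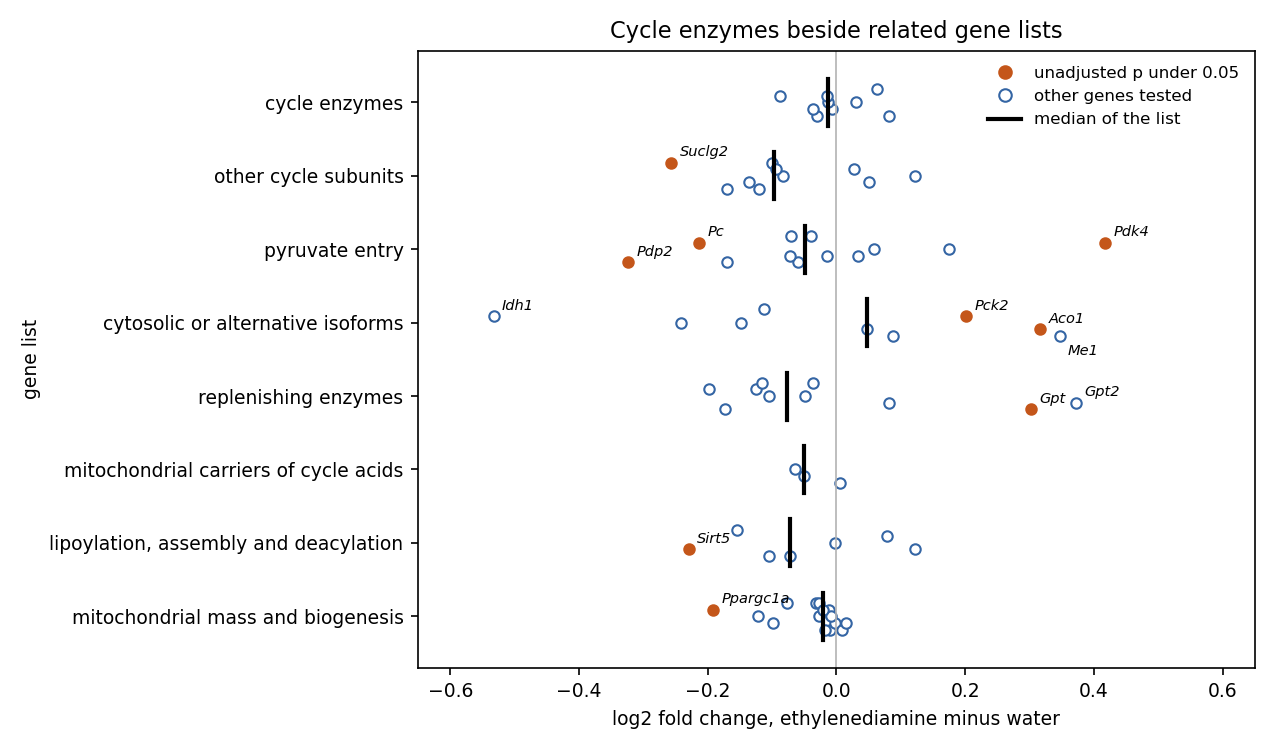
Log2 fold change (ethylenediamine minus water) of the 9 cycle enzyme genes and of the tested genes of 7 related lists; points are genes, filled where the unadjusted p was under 0.05, and black ticks are list medians. None of the 9 cycle enzyme genes is filled, and the filled points lie in 6 of the other lists.

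Markers of the cortex were checked in the same arrays. All 12 proximal tubule markers were well above background on all 6 arrays, and their summed signal, in multiples of the array's 75th percentile, was 2472 to 2530 in the water group and 2384 to 2480 in the ethylenediamine group. The ranges overlapped, but such a sum is weighted to the brightest markers. Of the 12, 2 were lower at an unadjusted p under 0.05, beside 4.97% of all genes tested, and 0 higher, beside 5.39%. The 2 were Lrp2 at -0.19 ± 0.056 and Slc5a12 at -0.29 ± 0.11 (SE, n = 3 per group; limma adjusted p = 0.371 and 0.479). The summed signal of 8 collecting duct markers was 312 to 366 against 226 to 265. That of 4 tested distal convoluted tubule markers (of 6 listed) was 24.7 to 30.4 against 17.0 to 25.1. That of 5 tested smooth muscle markers (of 6) was 25.1 to 40.3 against 36.5 to 52.3. That of 5 tested markers of injured tubule (of 6) was 20.0 to 32.7 against 29.0 to 47.4. Their median log2 fold change was 1.06, from -0.18 (Vcam1) to 2.56 (Havcr1). At an unadjusted p under 0.05, 3 of 5 were higher, beside 5.39% of all genes tested. By limma's adjusted p it was 0 of 5, beside 0% of all genes. The markers of these lists not tested were Pvalb and Trpm6 of the distal convoluted tubule, Cnn1 of smooth muscle and Krt20 of injured tubule. Further lists covered thick ascending limb, podocyte, endothelium, leukocyte, red blood cell and adipose markers. In each of them the ranges of the summed signal overlapped between the groups. The summed signal of the 9 cycle enzymes was 572 to 605 in the water group and 554 to 596 in the ethylenediamine group. In whole cortex, fewer cells of a type and less RNA per cell cannot be told apart, and the part of cell makeup or tubule injury in the values of the cycle enzymes was not tested.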

How the data were processed

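Cy3-labelled cRNA was made from 0.2 ug of RNA per rat, per the labels' protocols. Per the file headers, Agilent Feature Extraction 10.7.1.1 wrote the spots' processed intensity on a linear scale, on a grid of build rn4. The submitters' processing notes name version 10.7. The authors' deposited value table holds that intensity divided by each array's 75th percentile. On each array, the ratio of processed to deposited value was within 2% of its median for 100% of the non-control probes. The table is thus linear and uncentred and gives levels. The divisor itself was not compared with the 75th percentile. Its column medians were 0.1076, 0.1053 and 0.1046 for water and 0.1062, 0.1104 and 0.1071 for ethylenediamine.

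From the deposited intensity, log2 values minus the array's 75th percentile were computed, without 22 of 61537 probes with outlier flags. No spot was saturated. RefSeq accessions named 28206 probes through the GRCr8 annotation. Probes well above background on all 3 arrays of a group were kept (37822), and the brightest probe stood for its gene. The test was limma 3.58.1 (lmFit and eBayes, R 4.3.3) with Benjamini-Hochberg adjustment and a threshold of 0.05, tested on simulated data. The number of arrays limits the precision.

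Members and lists were chosen with earlier results of these data known. Named genes were all members, from each related list up to 4 genes at an unadjusted p under 0.05 or else the gene with the smallest p, always Sdha, Pc, Pdk4, Pdk2, Idh1 and Mdh1, and the 5 genes of most similar profile. Some genes that the rule names are not reported here. Idh3b, Idh3g, Sdhb, Sdhd, Vdac1, Tfam, Tomm20, Me1 and Me2 were chosen after their values were seen. Alternatives were normexp background, median and quantile scaling, the deposited table, other filters, the mean of probes, slide, replicate block, intensity trend, array weights and leaving out each array. Normexp used the median spot signal in place of the planned mean, a choice made after seeing the data.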

Additional observations from a re-analysis of the deposited data

How the results depend on the processing

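By limma, 0 of the 9 genes passed an adjusted p of 0.05 under any of the 18 alternatives, with adjusted p from 0.438 to 0.999. Over all genes, the count was 10 with the slide as a fixed block, 6 within slide 1, 1 with an intensity trend and 0 to 1 when an array was left out (1 without water replicate 2 or without ethylenediamine replicate 1), and the count of probes was 76 with the slide as a block, against 4. Under both slide settings the median of the 9 genes was 0.066, and Dlst (0.052), Mdh2 (0.054), Pdha1 (0.066), Suclg1 (0.089) and Pdk2 (0.0019) turned positive. With normexp, Dlst was 0.027, Suclg1 0.00051, Pdk2 0.021 and Idh3a -0.071. With the mean of probes Idh3a was -0.0067 and Idh2, at -0.15, had an unadjusted p under 0.05. When each array was left out in turn, the median of the 9 genes ran from -0.041 (without ethylenediamine replicate 1) to 0.031 (without water replicate 3) and was 0.013 without ethylenediamine replicate 3. Idh3a ran from -0.0028 to 0.15, Dlst from -0.038 to 0.040, Suclg1 from -0.066 to 0.031, Fh from -0.027 to 0.13, Mdh2 from -0.072 to 0.00044 and Pdha1 from -0.053 to 0.011, while Cs, Idh2 and Ogdh kept their sign.
No sign was seen that the replicate numbers pair the rats. Correlations across genes of the deviations were -0.0030, 0.022 and -0.0080 for same-numbered arrays. For differently numbered arrays they ran from -0.029 to 0.030. Values this small do not settle whether the rats were paired. With the replicate block the gene count was 0 and the median -0.013. Within slide 1 the treated group is 1 array, assumed to vary like the controls. The cause of these shifts was not tested.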

Other observations

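Transcripts of 2 cytosolic NADP-dependent enzymes had a wider range among the 3 control rats than those of their mitochondrial relatives, a difference that was not tested. Idh1, which oxidises isocitrate in the cytosol, stood at 6.12, 5.38 and 6.55 in the water group and at 5.60, 5.36 and 5.49 in the ethylenediamine group. Its controls spread over 1.18 log2 units, against 0.0598 for mitochondrial Idh2. Me1, the cytosolic malic enzyme, spread over 0.675 log2 units in the water group, against 0.223 for the mitochondrial Me2. The highest Idh1 signal was on water replicate 3 and the highest Me1 signal in that group on water replicate 1 (4.33, against 3.66 and 3.74).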
